A study of Mus musculus with 6 samples.

Results

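The 9 genes described here encode parts of the desmosome: the plakophilins Pkp1, Pkp2, Pkp3 and Pkp4, desmoplakin (Dsp), the cadherins desmoglein 2 (Dsg2) and desmocollin 2 (Dsc2), plakoglobin (Jup) and the membrane protein Perp. Their members on the array are all probe sets whose annotation gives 1 of these symbols and no other, which came to 22 of 45101 probe sets. The group was put together because Pkp2 read low in every Ret-deficient kidney, so the difference between genotypes is given here as a description. Bright member probe sets were part of a test over all bright probe sets, but no support for these genes is drawn from it. The kidneys came from C57BL/6 embryos of embryonic day 12.5, and whole-kidney RNA of 3 wild-type and 3 Ret-deficient biological replicates was hybridised, 1 array each. Ret is the receptor for GDNF on the ureteric bud, the epithelial tube that branches into the collecting system. The titles and the genotype field call the kidneys Ret-deficient, whereas the source field speaks of a Ret-knockout mother, and the titles were followed. The Ret allele, the litters and the number of embryos behind a sample are not given, so the spread between arrays may be technical in part.

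Desmosomes are spot-like junctions that fasten neighbouring cells and anchor their intermediate filaments. Desmogleins and desmocollins span the membrane and bind those of the next cell, plakoglobin and the plakophilins form the plaque under the membrane, and desmoplakin ties that plaque to keratins or, in some cells, to vimentin or desmin. Simple epithelia such as kidney tubules use mainly desmoglein 2, desmocollin 2 and plakophilin 2, while desmogleins 1 and 3 and plakophilin 1 belong mainly to stratified epithelia. Mesothelium and heart muscle also carry desmosomal proteins.

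The values are MAS5 signals, a background-corrected intensity per probe set on a linear scale, which the authors had scaled so that the mean of each array after trimming 2 percent at each end was the same. Differences are Ret-deficient minus wild-type on log2(signal + 16), which understates the change of dim probe sets, and an SE is that of the limma fit. Median centring of the arrays would raise the median difference of all tested probe sets to 0.10, so the sign of a difference nearer to 0 than this depends on the scaling. The brightest of 27 bacterial control probe sets, 97.2 to 187 on the 6 arrays, served as the gauge of background. Ret itself (1436359_at) read 10193 to 13315 in wild-type and 93.3 to 479.8 in Ret-deficient kidneys. Kidney marker genes were present on every array: Six2 of the nephron progenitors read 991 to 1830.1 and Foxd1 of the stroma 4633 to 18372. Wild-type replicate 1 and Ret-deficient replicate 1 stood apart from the other arrays. In the former the ratio of the 3 prime to the 5 prime control probe set of beta-actin was 10.7, against 3.88 to 5.21 elsewhere. This ratio is a sign of RNA quality. In the latter 7 of 12 ureteric epithelium markers were at background, among them Hoxb7 and Wnt7b, which were so on every array. Values without each of these arrays are therefore given below.

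In their brightest probe sets Pkp2, Dsp and Dsc2 read lower in all 3 Ret-deficient kidneys than in any wild-type kidney, Dsg2 was low in only some of them, and Jup and Pkp4 overlapped between the genotypes. Perp was dim and lower, and Pkp1 and Pkp3 gave almost no signal above background. Between the 3 Ret-deficient arrays the tested probe sets of Pkp2 spread by 0.34 to 0.95 log2 units and those of Dsp by 0.40 and 0.93, whereas those of Dsg2 spread by 1.82 to 2.16 and that of Dsc2 by 2.36. In limma, with Benjamini-Hochberg adjustment across the 22519 probe sets bright enough for testing, 0% passed an adjusted p of 0.05, so no member did. Ret itself (1436359_at), with a difference of -5.43, had an adjusted p of 0.51 in that limma test. Not passing it therefore does not show that a gene is unchanged. At an unadjusted p under 0.05 the count was 1209 probe sets, or 5.37%. Of the 22 member probe sets 12 were bright enough to be tested, and 5 of these 12 were lower with no overlap between the groups, where 5.54% of all tested probe sets were; because the group was chosen on this contrast, nothing is read from that count. None of the 12 was higher without overlap (background 5.17%). With 3 arrays a side, 0.1 is the smallest two-sided p that an exact permutation of the labels allows.

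**Figure D1:**
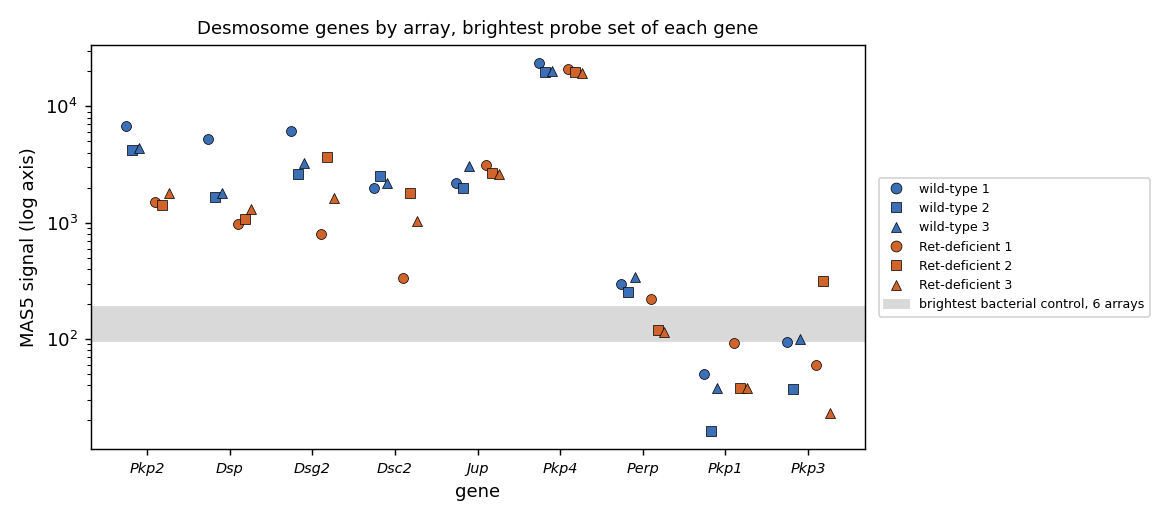
MAS5 signal (log axis) of the brightest probe set of each of the 9 desmosome genes on the 3 wild-type (blue) and 3 Ret-deficient (orange) arrays, 1 point per array, with the range of the brightest bacterial control shaded. The Pkp2 points of the groups lie well apart, at 4219 to 6769.9 against 1424 to 1802, while those of Pkp4 lie on top of each other and those of Pkp1 are at or below the shaded range.

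Pkp2, which in the plaque gathers desmoplakin and binds plakoglobin and the cadherins, had 4 probe sets. The brightest, 1449799_s_at, read 6769.9, 4219 and 4379.5 in the wild-type arrays and 1497, 1424 and 1802 in the Ret-deficient arrays. Every Ret-deficient value lay below every wild-type value. In this probe set the highest Ret-deficient value was 1.27 times the lowest, against 1.60 times among the wild-type arrays, where replicate 1 stood above the others. The other tested probe sets had nearly equal ratios in the groups, at 1.82 against 1.87 for 1420259_at and 1.97 against 2.07 for 1429183_at. The means were 5123 ± 1429 against 1574 ± 201 (SD, n = 3 per group) and the log2 difference was -1.67 (SE 0.23), or 3.17-fold. A second probe set, 1420259_at, read 4501, 2407 and 2746 in the wild-type arrays and 701, 982 and 1275 in the Ret-deficient arrays. Its log2 difference of -1.68 (SE 0.32) was close to that of the first, and again the groups did not overlap. The third, 1429183_at, was dimmer and read 1416, 854 and 684 in the wild-type arrays and 389, 765 and 434 in the Ret-deficient arrays. Here Ret-deficient replicate 2 lay inside the wild-type range and the difference was -0.87 (SE 0.35), so the probe sets disagree in size for that kidney. The fourth, 1460511_at, was not above background on any array, at 43.5 to 184, and is not read further. The suffix _s_at marks a probe set whose probes can match more than 1 transcript.

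In wild-type replicate 1 the brightest Pkp2 probe set read highest of all arrays. Without that array the difference was -1.45, and without Ret-deficient replicate 1 it was -1.63. In whole kidneys, for this and every gene below, fewer cells of a type and less RNA per cell cannot be told apart.

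Dsp, the plaque protein that reaches the intermediate filaments, had 3 probe sets. Its brightest, 1435493_at, read 5201, 1656 and 1803 in the wild-type arrays and 982, 1085 and 1299 in the Ret-deficient arrays. Wild-type replicate 1 stood far above the rest, at 3.14 times the lowest wild-type value, yet the Ret-deficient values also lay below both other wild-type arrays. The means were 2887 ± 2006 against 1122 ± 162 (SD, n = 3) and the difference was -1.15 (SE 0.44). Without wild-type replicate 1 it shrank to -0.63, so this array carried much of its size, and the Ret-deficient arrays spanned only 0.40 log2 units. The second probe set, 1435494_s_at, read 4050.0, 1263 and 1119 in the wild-type arrays and 477, 922 and 805 in the Ret-deficient arrays. It showed the same order of groups, with a difference of -1.32 (SE 0.52), or -0.73 without wild-type replicate 1. The third, 1427610_at, read 7.30 to 115 and was not above background on any array.

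Dsg2, the desmoglein of simple epithelia, had 6 probe sets, of which 3 were tested. The brightest, 1449741_at, read 6126, 2644 and 3273 in the wild-type arrays and 806, 3664 and 1640.2 in the Ret-deficient arrays. Ret-deficient replicates 1 and 3 lay below all wild-type arrays, replicate 2 lay among them, and the difference was -1.14 (SE 0.57). The other tested probe sets repeated this: 1449740_s_at read 743, 2672 and 1035 in the Ret-deficient arrays, against 1982 to 3389.9 in wild-type, and 1439476_at read 691, 2742 and 881 against 1564 to 2011. In the last of these Ret-deficient replicate 2 was the highest of all 6 arrays. Their differences were -1.03 (SE 0.47) and -0.58 (SE 0.49). Of the 3 dim ones 1460380_at overlapped at 115 to 347, and 1425619_s_at and 1426153_a_at were at or near background.

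Dsc2, the desmocollin that pairs with it, read 2007, 2508 and 2199 in the wild-type arrays and 337, 1801 and 1034 in the Ret-deficient arrays in its bright probe set, 1426911_at. The wild-type arrays were close together, at 2238 ± 253 (SD, n = 3), and the Ret-deficient arrays were spread from near the wild-type range down to 337. The difference was -1.36 (SE 0.56). Without Ret-deficient replicate 1 the differences fell to -0.70 for Dsc2 and -0.61 for Dsg2. A dimmer Dsc2 probe set, 1421156_a_at, was at or near background.

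Plakoglobin and Pkp4, which serve adherens junctions as well as desmosomes, did not follow. Jup (1426873_s_at) read 2212, 1982 and 3048 in the wild-type arrays and 3124, 2673 and 2626 in the Ret-deficient arrays. The Ret-deficient values lay at the upper end of the wild-type range, 1 of them just above it, with a difference of 0.24 (SE 0.21). Pkp4, known to bind classical cadherins and to act in cell division, read 23575, 19646 and 20061 in the wild-type arrays and 20925, 19719 and 19201 in the Ret-deficient arrays in 1452209_at. The groups overlapped, and the difference of -0.08 (SE 0.16) lay within its SE of 0; its sign changed under some settings, median centring among them. A dimmer Pkp4 probe set, 1438677_at, also overlapped, with 0.18 (SE 0.29).

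Perp, a tetraspan protein that desmosomes of stratified epithelia need, was below the brightness filter. It read 300.1, 252 and 343 in the wild-type arrays and 220.1, 119.8 and 114 in the Ret-deficient arrays. All Ret-deficient values lay below the wild-type ones, but replicate 3 was not above the bacterial control of its array (133) and replicate 2 barely was (117), so no fold change is given. Unlike the cadherins it was lowest in replicates 2 and 3. Pkp1, the plakophilin of stratified epithelia, read 16.2 to 91.7 and was not above background on any array. Pkp3, found in most desmosomes, read 23.1 to 317 in 1418831_at, above background only in wild-type replicate 3 and Ret-deficient replicate 2, and 5.40 to 17.1 in 1418832_at, nowhere above it.

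Promoter sequences of 3 of the 9 genes, Dsp, Jup and Pkp4, were read here, from RefSeq (build GRCm38.p6). Those of Dsp, lower in every Ret-deficient array, and Jup, which overlapped, are printed to set a pair of plaque genes with unlike values side by side. Each run holds the 250 bases before the annotated start, 5 prime to 3 prime on the gene's strand, and the capitals mark GC boxes (GGGCGG on either strand, some of which may overlap).
Dsp promoter, chr13:38151044-38151293, plus strand: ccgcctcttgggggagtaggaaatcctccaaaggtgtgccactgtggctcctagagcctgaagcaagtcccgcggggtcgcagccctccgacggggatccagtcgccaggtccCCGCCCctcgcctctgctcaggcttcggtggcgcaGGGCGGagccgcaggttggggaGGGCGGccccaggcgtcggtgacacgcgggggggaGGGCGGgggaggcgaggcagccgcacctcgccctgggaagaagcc
Jup promoter, chr11:100397791-100398040, minus strand: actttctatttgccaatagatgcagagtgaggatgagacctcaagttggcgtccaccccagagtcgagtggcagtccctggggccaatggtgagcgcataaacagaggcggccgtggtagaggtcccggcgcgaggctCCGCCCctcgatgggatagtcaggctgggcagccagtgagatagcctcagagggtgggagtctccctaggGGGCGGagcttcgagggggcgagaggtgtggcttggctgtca
The Dsp window held 4 GC boxes and the Jup window 2, and 32.7% of 32851 windows of the same length held at least 1. The base composition was 72.4% G or C for Dsp and 62.0% for Jup, with a median of 52.4% over all windows. Pkp4 has 2 annotated starts, with 5 GC boxes before the one and 0 before the other. The E-box CAGGTG, bound by Snail and Zeb repressors, was searched on both strands and occurred in neither printed window and once before the second Pkp4 start, against 17.2% of all windows. The grainyhead letters AACCGGTT, a palindrome, were in none of these 4 windows and in 0.116% of all. A match or its absence describes these letters only.

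Each array can be set against the wild-type mean. In Ret-deficient replicate 2 the median of the tested ureteric epithelium markers was closest to wild-type. There the brightest probe sets of Pkp2 and Dsp stood at -1.80 and -1.19, while those of Dsg2 and Dsc2 stood at -0.04 and -0.30. The other tested probe sets of Pkp2 stood at -1.64 and -0.29 there and the second of Dsp at -0.95, so the third Pkp2 probe set was as near to wild-type as Dsc2. In replicate 1 the brightest probe sets came in another order, with Dsc2 at -2.67 and Dsg2 at -2.20 against -1.73 for Pkp2 and -1.33 for Dsp. The second probe sets of Pkp2 and Dsp were lower in that array than their brightest, at -2.12 and -1.87. In replicate 3 the brightest probe sets of all 4 lay between -1.46 (Pkp2) and -0.93 (Dsp). Of the 12 ureteric epithelium markers 10 were tested, and their median offset was -3.67, -0.48 and -0.73 in replicates 1, 2 and 3. Single markers differed in which of replicates 2 and 3 was nearer to wild-type. Gata3 stood at -0.25 and -1.42 in these arrays, but Calb1 at -0.98 and -0.36. Their summed signal over all 12 was 59118 to 76708 in wild-type and 3903 to 45453 in Ret-deficient kidneys; Hoxb7 and Wnt7b were at background on every array, and 7 of 12 were so in replicate 1.

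In that replicate, with E-cadherin (Cdh1) at 71.7 and the epithelial factor Grhl2 at 84.3, both under the bacterial control of 128, the brightest probe sets of Pkp2 and Dsp still read 1497 and 982, Dsg2 806, Dsc2 337 and Jup 3124. Desmosome transcripts were thus measured there with E-cadherin at background. Not all epithelial genes were at background in that array, although 7 of the 12 ureteric epithelium markers were, Hoxb7 and Wnt7b among them. Gata3 read 1409, Krt8 1110.2 and Krt18 2140.0. Whether the cell types that carry them differ between the kidneys was not tested.

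**Figure D2:**
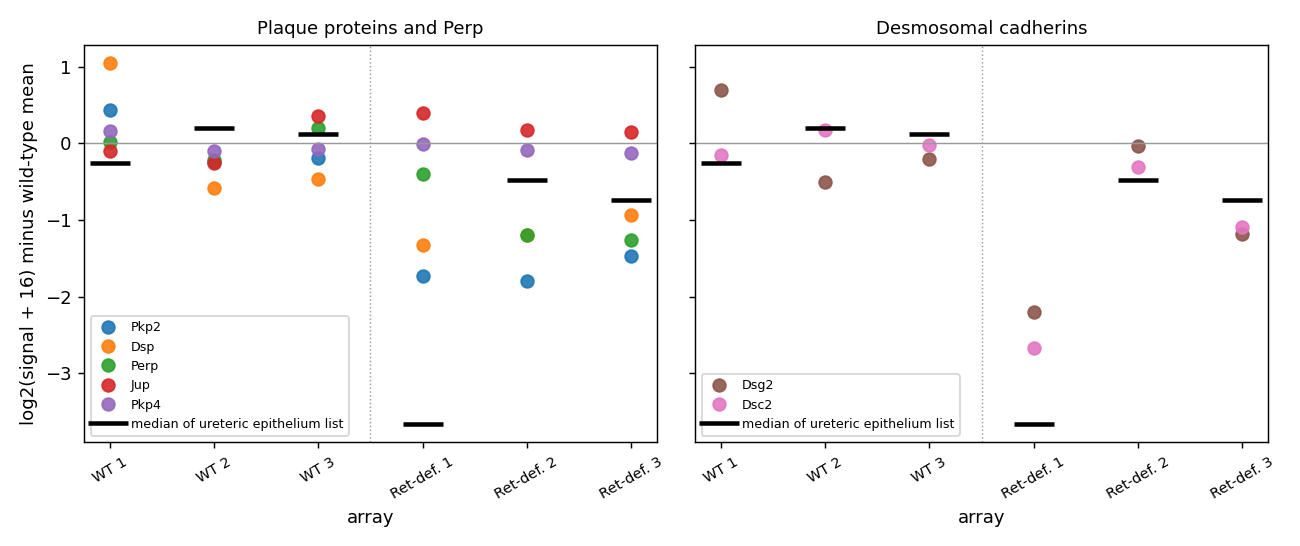
Log2(signal + 16) of each gene on each array minus its mean over the 3 wild-type arrays, from the brightest probe set of each gene, for plaque genes and Perp (left) and the cadherins (right), with the median of the 10 tested ureteric epithelium markers as a black bar. In the second Ret-deficient array Pkp2 (-1.80) and Dsp (-1.19) lie below the bar (-0.48) and Dsg2 (-0.04) and Dsc2 (-0.30) above it; in the first all lie above it.

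Wild-type replicate 1 read highest in the brightest probe sets of Pkp2, Dsp and Dsg2, and also in 3 of the 6 mesothelium markers. Bnc1, a transcription factor of mesothelium, read 2238, 99.6 and 204 in the wild-type arrays and 475, 385 and 35.1 in the Ret-deficient arrays. Upk3b, a uroplakin of mesothelial cells, read 1469.9, 127 and 247 in the wild-type arrays and 604, 371 and 80.7 in the Ret-deficient arrays. Lrrn4, a membrane protein, read 499.8 in wild-type replicate 1 and 9.10 to 124 on the others. The other 3 did not share this: Gpm6a, a membrane protein and the only one above background on all 6 arrays, was lowest there, at 868 against 1048 to 1500.5. Upk1b read 174 there and 267 and 329 in Ret-deficient replicates 1 and 2. The 6 mesothelium markers summed to 1722 to 5270.2 in wild-type and 1228 to 2925 in Ret-deficient kidneys, with 2 of 6 at background in wild-type replicate 1 and up to 5 of 6 elsewhere; Msln, which defines adult mesothelium, was at background throughout. The striated muscle markers had their highest sum in wild-type replicate 1 as well, 14753 against 984 to 8728 elsewhere, most of it from Actc1 at 13072, while the heart genes Myh6 and Nppa were at background there. Tnnt2, however, was higher in Ret-deficient replicates 1 and 3, at 787 and 605 against 333 in that array, and Myog in Ret-deficient replicate 1, at 329 against 284. The part of these markers, and of the beta-actin ratio of that array, in the Dsp value was not tested. Pkp2 and Dsp were lower in Ret-deficient kidneys also without it, as given above.

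Markers of squamous epithelium, another tissue rich in desmosomes, gave low signals. None of its 6 markers was bright enough to be tested, and they summed to 878 to 939 in wild-type and 531 to 606 in Ret-deficient kidneys. The keratin Krt5 read 15.2 to 154 and Krt14 47.2 to 160.1. Sfn and Trp63, named after their values were seen, read 182 to 352 and 16.3 to 311. Sfn was above the bacterial control on every array, and Trp63 on 2 wild-type arrays and 1 Ret-deficient array.

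**Figure D3:**
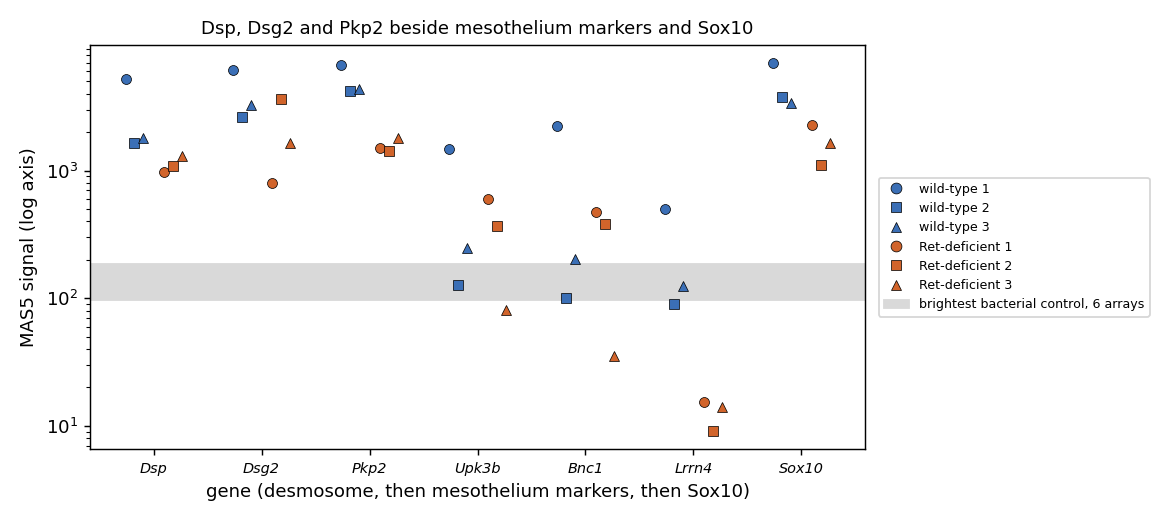
MAS5 signal (log axis) on the 6 arrays for Dsp, Dsg2 and Pkp2, then the mesothelium markers Upk3b, Bnc1 and Lrrn4, then Sox10, with the range of the brightest bacterial control shaded. The first wild-type array is the highest for each gene shown, with Bnc1 at 2238 there and at most 475 on the others. The mesothelium markers Gpm6a, Upk1b and Msln, which were not highest in that array, are not shown.

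The rest of the junction was read from gene lists. Of 9 other desmosome genes 6 had a probe set, and only envoplakin (Evpl), a plakin of the cornified envelope, was bright enough to be tested. It read 408, 303 and 383 in the wild-type arrays and 208, 383 and 232 in the Ret-deficient arrays, and the groups overlapped, with a difference of -0.43 (SE 0.26). Dsc3, a desmocollin of stratified epithelia, read 109 to 251 in wild-type and 82.0 to 141 in Ret-deficient kidneys, close to background. Periplakin (Ppl) read 17.2 to 139, Dsc1 7.80 to 82.1, Dsg1a 1.60 to 56.9 and Dsg1b 1.60 to 88.4; Ppl passed the control on 1 array and the others on none. Dsg3, Dsg1c and Dsg4 were not analysed here.

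Adherens junction genes, tested for all 12, were mixed, and stayed so without either array that stood apart: 8 fell on the negative side and 4 on the positive, and the median difference was -0.09 (-0.14 without Ret-deficient replicate 1), where the median over all 11581 tested genes was 0.0030. The groups were lower without overlap for 3 of the 12 (Cdh1, Ctnnd2 and Nectin2, named after their values were seen), against 5.73% of all genes. E-cadherin read 3715, 5360.5 and 4284 in the wild-type arrays and 71.7, 3028 and 2832 in the Ret-deficient arrays, and N-cadherin (Cdh2), the cadherin of mesenchyme, 20747, 16439.5 and 14466 against 17302, 19373 and 17664. Beta-catenin (Ctnnb1), the closest relative of plakoglobin at these junctions, had a difference of 0.06 (SE 0.15) and alpha-catenin (Ctnna1) one of -0.04 (SE 0.16), positive under median centring. Their values, like that of Jup, overlapped between the groups.

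Among 7 intermediate filament genes 6 were negative and none separated the groups, with a median of -0.42, or -0.26 without Ret-deficient replicate 1 and -0.09 without wild-type replicate 1, when 4 were negative. The negative Vim (-0.01) and Nes (-0.006) and the positive Des (0.002), named after their values were seen, were so small that their sign depends on the scaling. Of the keratins of simple epithelia, to which desmoplakin attaches, Krt8 read 1110.2, 11251 and 6851 in the Ret-deficient arrays against 9953 to 11722 in wild-type, and Krt18 2140.0, 13390.0 and 7254 against 10738 to 13087. Both were low in replicate 1, intermediate in replicate 3 and near wild-type in replicate 2, the order in which the cadherins also stood. Krt19 read 828, 198 and 325 in the wild-type arrays and 290.5, 413 and 139.5 in the Ret-deficient arrays, highest in wild-type replicate 1 as Dsp was and lowest in Ret-deficient replicate 3. Krt7 read 769, 702 and 693 in the wild-type arrays and 225, 766 and 869 in the Ret-deficient arrays, low in Ret-deficient replicate 1 and highest of all in replicate 3. Of 7 genes that act in desmosome assembly 3 were negative and 4 positive as scaled by the authors, and the median was 0.12; all groups overlapped. Prkca, a protein kinase C that plakophilin 2 brings to desmoplakin, read 1469, 844 and 1247 in the wild-type arrays and 1540.1, 1542 and 1255 in the Ret-deficient arrays. Rhoa, Gsk3b and the calcium pump gene Atp2a2 had differences of -0.02 (SE 0.15), 0.22 (SE 0.18) and -0.10 (SE 0.16), and the first and last of these turned positive under median centring.

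Of 13 transcription factors of epithelia 6 were tested and 5 of these were negative, with a median of -1.62, or -0.89 without Ret-deficient replicate 1; the list shares its tissue with the ureteric epithelium markers. Grhl2, a grainyhead factor that promotes epithelial junction genes, read 4225, 4635 and 4121 in the wild-type arrays and 84.3, 3313 and 2638 in the Ret-deficient arrays. It was at background in replicate 1, and below the wild-type range but far above background in the others. Grhl3 and Grhl1 were dim, at 39.7 to 242 and 8.60 to 314. Ovol1, a repressor of mesenchymal genes, had a difference of -1.33 (SE 0.48), which is approximate because replicate 1 was at background. All 5 repressors of epithelial genes had a small positive difference, with a median of 0.17 (0.34 without wild-type replicate 1) and overlapping groups: 0.04 (SE 0.14) for Zeb1, 0.44 (SE 0.29) for Zeb2, 0.06 (SE 0.23) for Snai1 and 0.17 (SE 0.23) for Snai2. No gene of any of these lists passed the limma test over all probe sets, and neither did Ret.

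**Figure D4:**
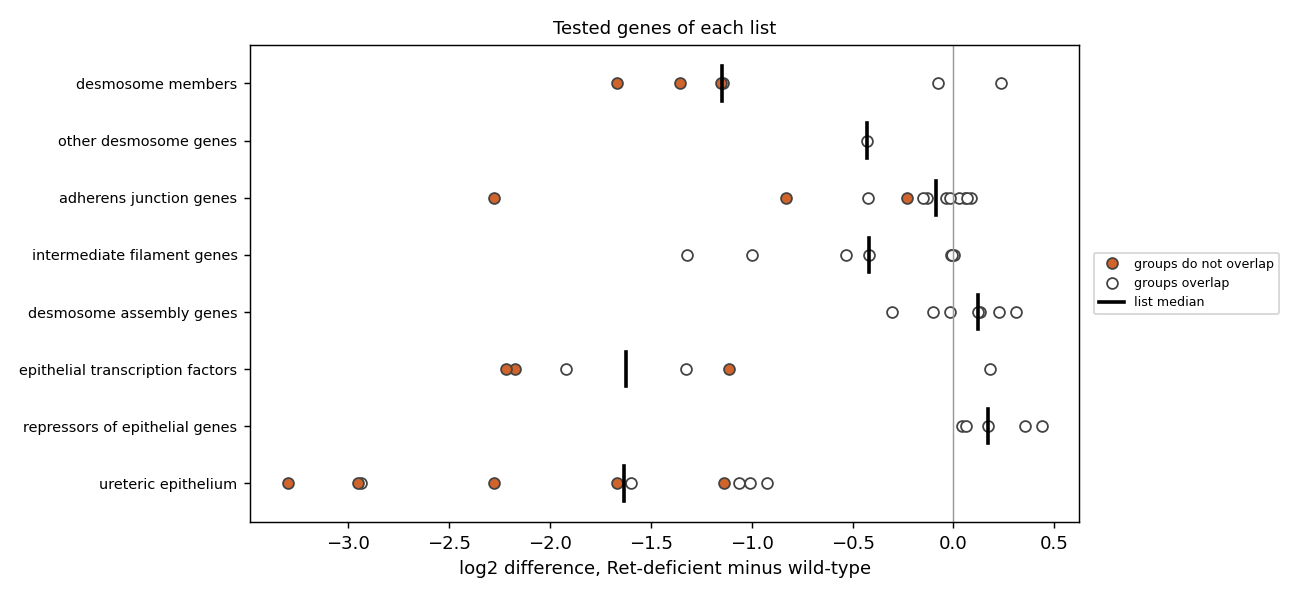
Log2 difference (Ret-deficient minus wild-type) of every tested gene of the desmosome members, the 6 related lists and the ureteric epithelium markers, 1 circle per gene, filled where the groups do not overlap, with the list median as a bar. The members split, with Pkp2 at -1.67 and Jup at 0.24, while adherens junction genes centre on -0.09 and the repressors on 0.17.

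The genes whose values ran most like those of the brightest Pkp2 probe set were found by the root mean square distance of log2(signal + 16), centred on each gene's mean, over the 6 arrays and among all tested genes. The 5 nearest were Pgr, the progesterone receptor (0.29 log2 units), the homeobox gene Dlx2 (0.32), Sox2 (0.32), Sox10 (0.33) and the unnamed transcript E330013P04Rik (0.34). Sox10, a factor of neural crest and its glia, read 6971, 3770.1 and 3362 in the wild-type arrays and 2268, 1100.4 and 1644 in the Ret-deficient arrays. Sox2 read 1268, 807 and 757 in the wild-type arrays and 434, 214 and 455 in the Ret-deficient arrays. Both were lower in every Ret-deficient array and highest in wild-type replicate 1, as the brightest Pkp2 probe set was. Sox10 and Sox2 were lowest in Ret-deficient replicate 2, well below replicate 1. The brightest Pkp2 probe set read nearly the same in these arrays, 1497 in replicate 1 and 1424 in replicate 2. The other tested Pkp2 probe sets were lowest in replicate 1. Dsp ranked 18th from Pkp2, at 0.41, Dsg2 950th at 0.72 and Dsc2 1923rd at 0.78, with Pkp4 and Jup further off. All these distances share the 6 arrays, and the nearest genes share with Pkp2 the difference by which it was chosen.

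Sox10 is also 1 of the neural crest markers. Of the 3 of these that had a probe set, Sox10 had a difference of -1.47 (SE 0.37), and its groups did not overlap. The neuronal gene Elavl4 had a difference of -0.70 (SE 0.31), and its groups overlapped. The catecholamine enzyme gene Th also overlapped and was above background on 3 of 6 arrays, at 21.5 to 383. The 3 markers summed to 6549.8 to 8760.3 in wild-type and 2615 to 4200.1 in Ret-deficient kidneys, and none was at 0. Their part in the Pkp2 value was not tested.

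Nearest to Dsp by the same measure were Acap1, a GTPase-activating protein gene (0.21 log2 units), the acetylcholine receptor subunit gene Chrnb1 (0.24), Ccdc3 (0.26), the alcohol dehydrogenase gene Adh6b (0.27) and Dlx2 (0.28). Acap1 read 882, 379 and 473 in the wild-type arrays and 233, 236 and 317 in the Ret-deficient arrays. Here, too, wild-type replicate 1 was the highest. Dlx2 was near both Pkp2 and Dsp, and read 3656, 2025 and 1624 in the wild-type arrays and 1018, 1016 and 940.3 in the Ret-deficient arrays.

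Markers of the other cells of the kidney gave the following for these arrays. Of 8 nephron progenitor genes 4 were negative and 4 positive (median 0.0009), but without wild-type replicate 1 all 8 were negative (median -0.27). Of 5 tested early nephron genes all were negative (median -0.40), but without Ret-deficient replicate 1, 4 were, with Pax8 at 0.10, Wnt4 at -0.05 and Lhx1 at -1.19 in place of -3.13. Of 7 stroma genes 5 were positive (median 0.23, or 0.41 without Ret-deficient replicate 1). Their median offsets from the wild-type mean were 0.15, 0.01 and 0.88 in Ret-deficient replicates 1, 2 and 3, highest by far in replicate 3. Endothelium had a median of -0.06 over 6 genes, with -0.19 without Ret-deficient replicate 1 and 0.28 without wild-type replicate 1. Macrophages had a median of 0.47 over 5 genes, with median offsets of 0.51, -0.40 and 1.33 in Ret-deficient replicates 1, 2 and 3. Erythroid cells had a median of 0.04 over 4, or 0.12 without wild-type replicate 1.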

How the data were processed

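Affymetrix whole-genome arrays, 3 per genotype and 1 per kidney sample, were grouped by the sample titles. The authors deposited a linear signal intensity per probe set, which the submitters' processing notes credit to MAS5; its version and settings are not stated there or in the labels. The authors' values had a trimmed mean of 2500.0 on every array, and the median signal was 259 to 352. A common trimmed mean makes each value relative to the rest of the RNA. The design text states that RNA was amplified with a commercial kit, while the label protocol describes standard labelling.

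Values were used as log2(signal + 16) with no further normalization, since array medians differed by only 0.42. Control probe sets (64) were left out, and the 22519 probe sets at or above the median of the mean log2 values were tested with limma 3.58.1 (lmFit, eBayes) in R 4.3.3 over all 6 arrays. Symbols came from the platform annotation; for genes outside the 9 they were updated by gene ID with RefSeq names (GRCm38.p6, 99.42% matched). Each gene is shown by its brightest tested probe set, or its brightest where none was tested. Named genes were Ret, all members, all other desmosome genes, the first 4 of each further list in written order, and the 5 nearest to Pkp2 and to Dsp; exceptions are marked or named as defining markers of a list. The members and lists were chosen with earlier results of these data known. The alternatives were other pseudocounts, filters, normalizations and variance models, array weights, a replicate block, each array left out and averaging the probe sets of a gene. The limma step was tested on simulated data.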

Additional observations from a re-analysis of the deposited data

How the results depend on the processing

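The log2 difference of Pkp2 was -1.67 and stayed within 1 SD of that value under every alternative run, from -1.79 to -1.45 with 1 array left out in turn. Averaging its tested probe sets gave -1.405. The median over the 6 tested member genes was -1.15, with 5 of 6 negative. With 1 array left out it ranged from -1.36 to -0.66, with 4 or 5 negative; it was -0.71 without wild-type replicate 1 and -0.66 without Ret-deficient replicate 1. Without both of these arrays, an alternative chosen after seeing the data, it was -0.40, and Pkp2 was -1.42. Array weights gave a median of -0.71. Over all alternatives Dsp ranged from -1.45 to -0.54, Dsg2 from -1.69 to -0.26, Dsc2 from -1.88 to -0.70 and Jup from 0.11 to 0.42, all with 1 sign. Pkp4 ranged from -0.13 to 0.051 and changed sign in 4 of 17 alternatives. Median centring moved the median of all tested probe sets to 0.10, and Pkp2 to -1.55.

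The count of probe sets past an adjusted p of 0.05 was 0 in limma and became 1 with an intensity trend in the variance and 1 with median centring, and 0 to 1 with an array left out (1 without Ret-deficient replicate 1). At an unadjusted p under 0.05 the count of 1209 became 2533 with array weights, 2265 without the filter on dim probe sets and 723 with the top 30 percent by mean. It ranged from 838 to 2140 with an array left out, the highest without Ret-deficient replicate 3. Of these changes, that by the filters goes with the number of probe sets tested; the cause of the others was not tested. With the replicate number as a block the count was 1141 and Pkp2 -1.67. The labels do not state whether the numbers pair the samples. Same-numbered arrays correlated at 0.031, -0.042 and -0.12 in their deviations from the group means, and 1 of 6 arrays correlated best with its own number. With so few arrays these values cannot show how the samples were matched. Among 997 further values of named genes 13 moved by more than 1 SD and 71 changed sign. Signal over background limits Perp, Pkp1 and Pkp3, and precision is limited throughout by 3 arrays a group.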
